A study of Mus musculus with 6 samples.

Results

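The genes described here are 9 genes whose transcripts define the B cell lineage, measured in preparations of regulatory T cells (Treg). They are Cd79a, Cd79b, Ms4a1, Cd37, Cd22, Blnk, Cd72, Fcer2a and Pax5, and every probe set that the array platform's annotation assigns to one of these symbols was taken. This gave 13 probe sets of 22626 that are not controls, and all 9 genes were measured among 12393 genes in all. Cd22, Cd37, Fcer2a and Ms4a1 had 2 probe sets each.

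Total RNA came from mouse CD4+CD25+ cells separated with magnets and was hybridised to 6 one-colour oligonucleotide arrays. The knockout group (3 arrays) had the genotype fl-DNMT1/Foxp3cre, a floxed gene for the maintenance DNA methyltransferase Dnmt1 and a Cre recombinase driven by Foxp3, the transcription factor of Treg. The wild type group (3 arrays) is labelled C57BL6, as is the strain of the knockout mice, and all cells were labelled CD4+CD25+. No age, sex or treatment is given in the sources used here, and the controls are described without the Cre or the floxed allele, so the deletion cannot be told apart from any effect of carrying these alleles. Samples are labelled as independent without each being tied to 1 animal, so that the spread behind the p-values may be partly technical.

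A B cell recognises antigen with a membrane immunoglobulin that signals through the Cd79a and Cd79b chains. The adaptor Blnk carries the signal inward, while Cd22 and Cd72 are inhibitory co-receptors that restrain it. Ms4a1 encodes CD20, Cd37 a tetraspanin of the leukocyte surface, Fcer2a the low-affinity immunoglobulin E receptor CD23 of mature follicular B cells, and Pax5 the transcription factor that commits cells to the lineage. B cells do not belong in a CD4+CD25+ separation, and Foxp3 is not normally transcribed in them. Cd37 is also transcribed by T cells and Cd72 by some other leukocytes.

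The promoters of 4 members are shown because Dnmt1 copies methylation at CpG dinucleotides, so that the CpG content is the feature of these sequences most related to the knocked-out enzyme. Each line gives the 250 bases before a RefSeq transcript start of the gene (build GRCm38.p6), 5′ to 3′ on the gene's strand, with CpG dinucleotides in capitals.
Cd79a: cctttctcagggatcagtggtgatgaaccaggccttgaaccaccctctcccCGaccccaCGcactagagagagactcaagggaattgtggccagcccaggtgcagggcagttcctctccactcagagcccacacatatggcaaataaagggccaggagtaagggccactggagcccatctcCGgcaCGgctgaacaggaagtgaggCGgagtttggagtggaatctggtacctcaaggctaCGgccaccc
Cd22: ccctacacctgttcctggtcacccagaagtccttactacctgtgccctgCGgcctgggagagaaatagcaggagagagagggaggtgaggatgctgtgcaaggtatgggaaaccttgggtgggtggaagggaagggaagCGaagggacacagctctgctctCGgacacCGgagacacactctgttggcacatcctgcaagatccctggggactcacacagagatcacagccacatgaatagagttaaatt
Blnk: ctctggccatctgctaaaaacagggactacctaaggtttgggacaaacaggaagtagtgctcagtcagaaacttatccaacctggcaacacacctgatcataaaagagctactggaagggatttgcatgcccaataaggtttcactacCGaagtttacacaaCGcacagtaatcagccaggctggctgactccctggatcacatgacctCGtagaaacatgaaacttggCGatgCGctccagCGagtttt
Pax5: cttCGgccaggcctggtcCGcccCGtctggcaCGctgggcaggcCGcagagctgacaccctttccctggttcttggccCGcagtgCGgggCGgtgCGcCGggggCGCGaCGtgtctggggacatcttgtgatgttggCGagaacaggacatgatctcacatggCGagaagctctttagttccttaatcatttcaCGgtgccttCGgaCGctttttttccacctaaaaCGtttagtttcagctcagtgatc
These windows lie at chr7:24897247-24897496 (plus strand) for Cd79a, chr7:30879029-30879278 (minus strand) for Cd22, chr19:40994222-40994471 (minus strand) for Blnk and chr4:44710695-44710944 (minus strand) for Pax5. The Cd22 window lies inside the gene span (chr7:30865404-30880342), so it precedes an internal transcript start. The same holds for the Cd37 and Cd72 windows counted below. The Pax5 window held 19 CpG, more than 80.3% of the 32851 promoter windows of the same length in the RefSeq table. The Cd79a and Blnk windows held 6 CpG each, which is the median of all windows, and the Cd22 window held 4. Of the other members with an entry, Cd37 had 8, Cd72 had 6 and the 3 Fcer2a starts had 3, 2 and 2, so that 7 of the 9 members have 1 or more windows. Cd79b and Ms4a1 were not among them.

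Known motifs of B cell promoters were looked for on both strands of the same windows. The octamer ATGCAAAT, bound by the Oct factors and their partner encoded by Pou2af1, was found in 1 of the 9 windows of members, with its first base 130 bases before the Blnk start, against 1.6% of all windows. A palindromic form of the motif of Ebf1, an early B lineage factor, was found in 1 of the 9, against 0.779% of all windows. It began 49 bases before the internal Cd22 start. The ETS motif AGGAAGT was found in 4 of the 9, those of Cd79a, Cd37, Blnk and Cd72, against 7.69% of all windows. In the Blnk window the ETS motif began 202 bases before the start and did not overlap the octamer. A match describes letters in a window and no binding.

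Transcripts of 7 members lay above the level of unrelated tissue genes on every array, and no member passed the test between the genotypes. The signalling chain Cd79a had RMA expression of 7.62, 8.40 and 8.05 (log2) on knockout arrays 1, 2 and 3, against 7.67, 9.17 and 8.08 on wild type arrays 1, 2 and 3. Wild type array 2 was the highest of all 6, and the values of the groups overlapped. Its mean was 8.02 ± 0.39 in the knockout and 8.30 ± 0.78 in wild type (SD, n = 3 each), so that they differed by -0.28 (SE 0.37, limma adjusted p = 0.739).

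Its partner Cd79b had 8.10, 8.95 and 8.66 on the knockout arrays, against 8.46, 9.75 and 8.73 on the wild type arrays. The order of the arrays was the one of Cd79a, with knockout array 1 lowest and wild type array 2 highest. The difference of the means was -0.41 (SE 0.35, limma adjusted p = 0.584).

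The greatest mean difference was that of Ms4a1 (CD20), with 7.83, 9.52 and 9.05 in the knockout, against 8.86, 10.16 and 9.09 in wild type. Knockout array 1 stood below every wild type array, while knockout array 2 stood above 2 of the 3 wild type arrays. The means were 8.80 ± 0.87 in the knockout and 9.37 ± 0.69 in wild type, which gives a difference of -0.57 (SE 0.48, adjusted p = 0.577 by limma). The second probe set of Ms4a1 had 5.29, 7.16 and 6.67 in the knockout, against 6.74, 7.97 and 6.78 in wild type. It placed knockout array 1 lowest and wild type array 2 highest too, with a difference of -0.79 (SE 0.50, limma adjusted p = 0.483 over all probe sets).

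**Figure D1:**
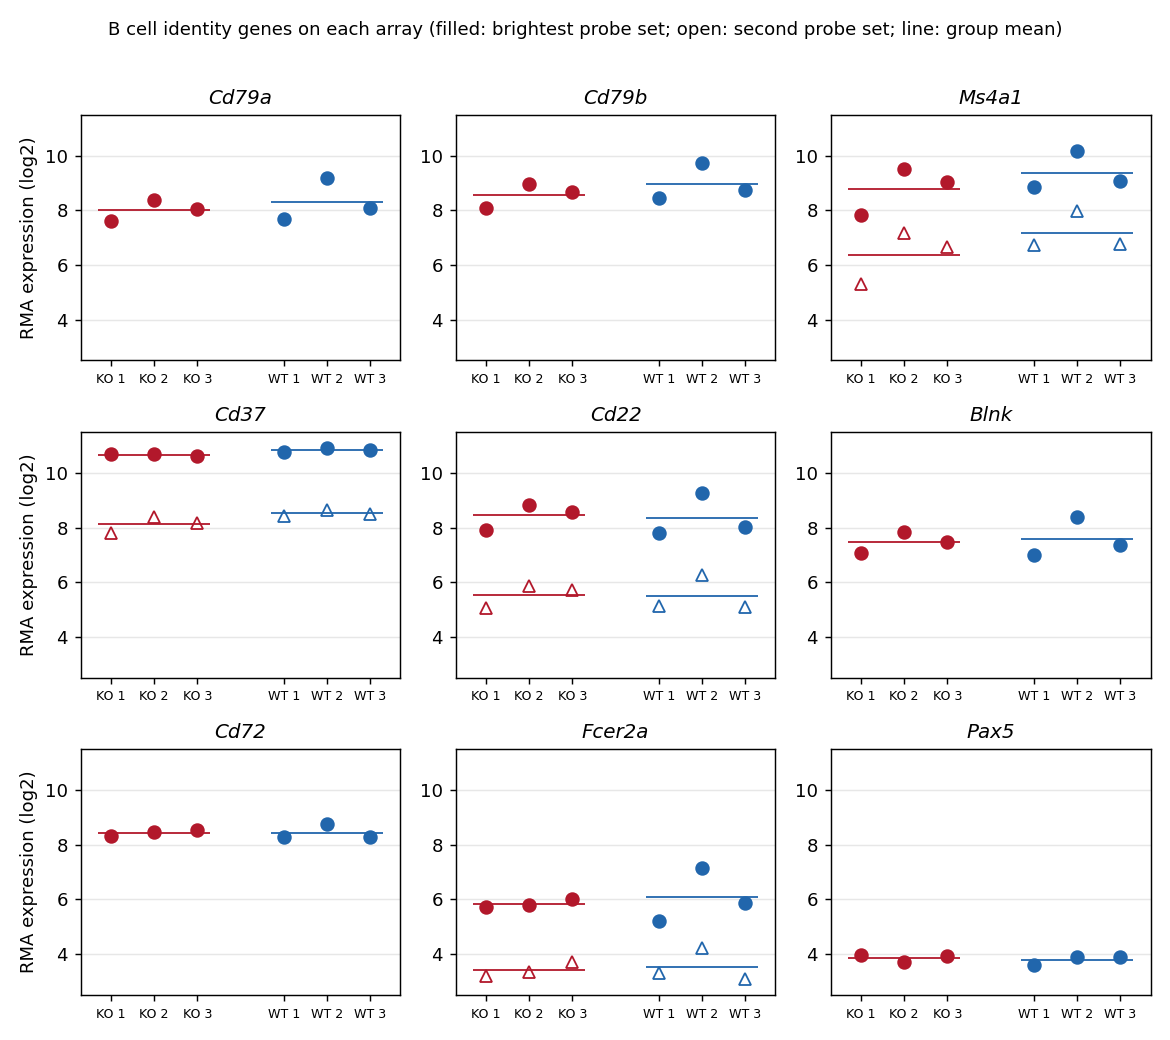
RMA expression (log2) of the 9 genes on the 3 knockout arrays (KO, red, left) and the 3 wild type arrays (WT, blue, right), with filled circles for the brightest probe set, open triangles for the second probe set and lines for group means. Wild type array 2 is the highest of the 6 for 12 of the 13 probe sets, the exception being that of Pax5.

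The co-receptor Cd22 and the adaptor Blnk had nearly the same mean in both genotypes. Cd22 had 7.92, 8.83 and 8.58 in the knockout, against 7.80, 9.25 and 8.01 in wild type, and differed by 0.09 (SE 0.39, adjusted p = 0.930 by limma). Its second probe set, with 5.04, 5.84 and 5.73 in the knockout, against 5.14, 6.26 and 5.08 in wild type, differed by 0.05 (SE 0.34, limma adjusted p = 0.962 over all probe sets). Both probe sets had wild type array 2 highest and overlapping groups. Blnk had 7.08, 7.85 and 7.47 in the knockout, against 6.98, 8.39 and 7.37 in wild type, and differed by -0.12 (SE 0.35, adjusted p = 0.897 by limma). The 95% confidence interval of the Cd22 difference ran from -0.83 to 1.01 and that of Blnk from -0.95 to 0.71, so a difference of about 1.5-fold either way is within both.

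Fcer2a (CD23) had the widest spread of the members within wild type. Its levels were 5.71, 5.78 and 6.03 in the knockout, against 5.21, 7.16 and 5.86 in wild type, so the wild type arrays held both the lowest and the highest value. The difference was -0.23 (SE 0.43, limma adjusted p = 0.822). Its second probe set was dim, with 3.19, 3.35 and 3.70 in the knockout, against 3.31, 4.23 and 3.06 in wild type, and differed by -0.12 (SE 0.29, limma adjusted p = 0.871 over all probe sets).

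Cd72 and the brightest probe set of Cd37, genes that are not restricted to B cells, moved far less between arrays. Cd72 had 8.32, 8.46 and 8.54 in the knockout, against 8.30, 8.76 and 8.27 in wild type, and differed by -0.003 (SE 0.14, limma adjusted p = 0.995). Cd37 had 10.68, 10.68 and 10.64 in the knockout, against 10.78, 10.93 and 10.86 in wild type. It was the only 1 of the 9 genes whose groups did not overlap, against 25% of all genes tested. Its difference was -0.19 (SE 0.07, limma adjusted p = 0.250), and the second probe set, with 7.79, 8.37 and 8.18 in the knockout, against 8.42, 8.65 and 8.50 in wild type, differed by -0.41 (SE 0.15, limma adjusted p = 0.238 over all probe sets).

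The probe set of Pax5 read no more than probe sets of genes from unrelated tissues. It had 3.94, 3.72 and 3.92 in the knockout, against 3.60, 3.89 and 3.88 in wild type, and differed by 0.08 (SE 0.11, adjusted p = 0.764 by limma). The median of 26 genes of liver, brain, pancreas, muscle and the like was between 3.99 and 4.22 on the knockout arrays and between 4.12 and 4.17 on the wild type arrays, above Pax5 on all 6. The highest of the 26 genes reached 5.64 to 5.75 on knockout arrays and 5.51 to 5.63 on wild type arrays. The brightest probe sets of 7 members, those other than Pax5 and Fcer2a, lay above that level on every array, while Fcer2a lay below it on wild type array 1 and knockout array 1. RMA compresses low levels, so a Pax5 transcript at a low level was not detectable with this probe set.

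Across the genotypes, 0 of the 9 genes passed limma's test at an adjusted p under 0.05, against 1.9% of all genes (236 of 12393), with 1.33% higher and 0.573% lower in the knockout. Of the 13 probe sets, 0 passed over all probe sets, against 1.68% of all probe sets (1.19% higher and 0.486% lower). An unadjusted p under 0.05 was found for the 2 probe sets of Cd37, against 16.6% of all probe sets, and these were the 2 whose groups did not overlap, against 23.4%. At an unadjusted p under 0.05, 1 of the 9 genes (Cd37) was lower in the knockout, against 17.9% of all genes in either direction. The difference was negative for 7 members and positive for 2, Cd22 and Pax5, with a median of -0.19 beside a median of -0.01 over all genes. The between-genotype part made up at most 24.7% of the variance over the 6 arrays for any probe set except those of Cd37, where it was 81.5% and 54.9%. A B cell share of the separated cells and the amount of these transcripts per B cell cannot be told apart in such bulk RNA.

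**Figure D2:**
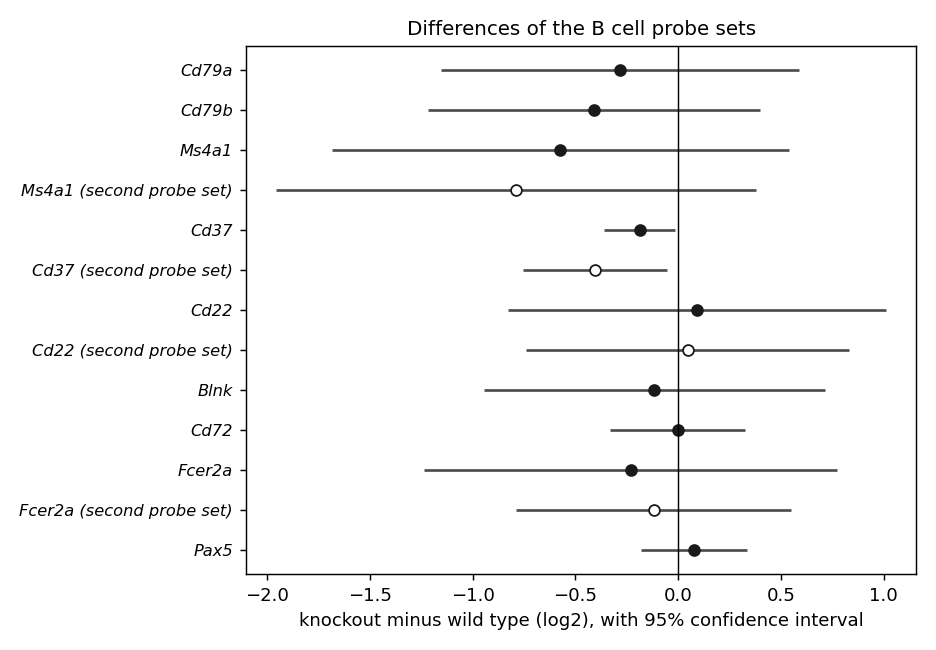
Knockout minus wild type difference (log2) of each of the 13 probe sets with its 95% confidence interval from limma, filled for the brightest probe set of a gene (fit over genes) and open for the second (fit over probe sets). The intervals of Cd79a, Cd79b, Ms4a1, Cd22, Blnk and Fcer2a span 0 widely, and those of the Cd37 probe sets lie below 0 before adjustment.

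The mean over the 9 members summarised each array, although it holds Pax5, at the level of unrelated tissue genes, and Cd37, which T cells transcribe. It was 7.47, 8.02 and 7.88 on the knockout arrays, against 7.52, 8.61 and 7.79 on the wild type arrays. The knockout mean was 7.79 ± 0.29 and the wild type mean 7.97 ± 0.57 (SD, n = 3 each), so that the difference of -0.18 was smaller than the spread within either group. Without Pax5 and Cd37 (chosen with these values seen) the SD was 0.38 in the knockout and 0.70 in wild type, and wild type array 2 exceeded wild type array 1 by 1.34 in place of 1.09. Wild type array 2 set its sign. Without that array the difference was 0.14, with 6 members higher and 3 lower in the knockout, and without knockout array 1 it was -0.02. Leaving out any of the other 4 arrays gave between -0.41 and -0.23, and in no case did a member pass the test (lowest limma adjusted p = 0.260).

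Between arrays of the same genotype the levels were far apart. Compared with wild type array 1, wild type array 2 was 2.84-fold higher in Cd79a, 2.44-fold in Cd79b, 2.46-fold in Ms4a1, 2.74-fold in Cd22, 2.66-fold in Blnk and 3.86-fold in Fcer2a. For Cd72 this was 1.37-fold, for Pax5 1.23-fold and for Cd37 1.11-fold. Among the knockout arrays, array 2 was 3.23-fold above array 1 in Ms4a1, 1.88-fold in Cd22, 1.80-fold in Cd79b and 1.71-fold in both Cd79a and Blnk, but 1.05-fold in Fcer2a.

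**Figure D3:**
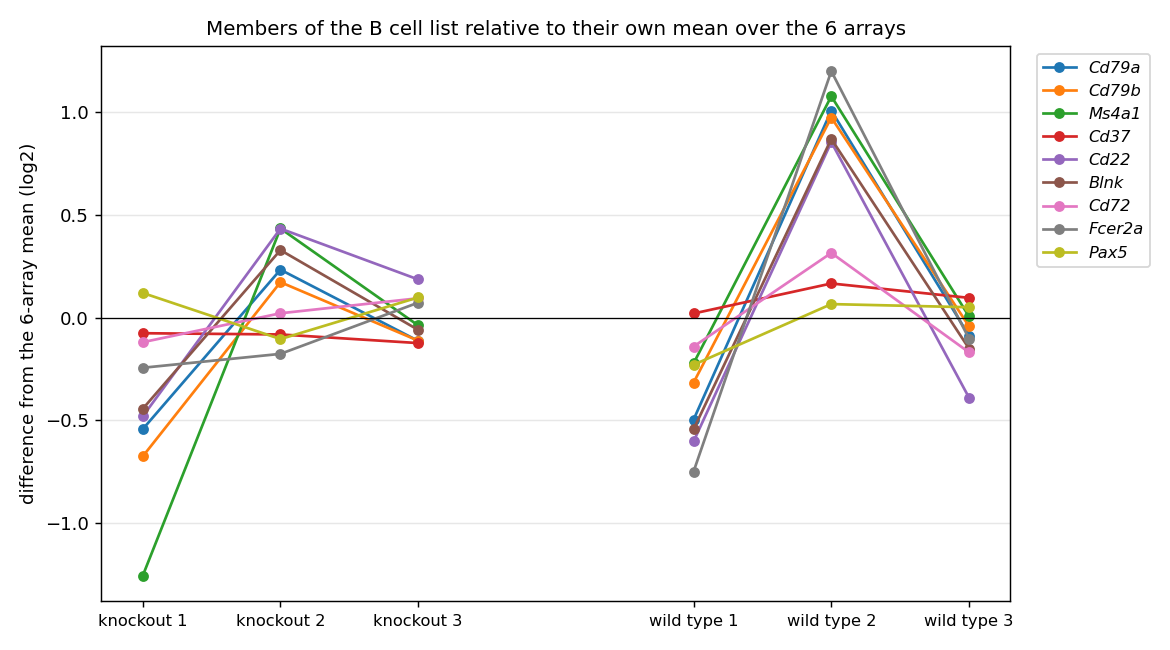
Level of each member on each array relative to its own mean over the 6 arrays (log2, brightest probe set), knockout arrays left and wild type arrays right, with lines joining arrays of a genotype. Cd79a, Cd79b, Ms4a1, Cd22, Blnk and Fcer2a stand highest on wild type array 2, and Cd37, Cd72 and Pax5 vary least; the lines only guide the eye.

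For 6 of the 9 members this spread was among the widest of all genes in wild type. The highest minus the lowest wild type array was 1.503 for Cd79a, 1.29 for Cd79b, 1.30 for Ms4a1, 1.46 for Cd22, 1.41 for Blnk and 1.95 for Fcer2a, where the median over all genes was 0.18. It was 0.48 for Cd72, 0.30 for Pax5 and 0.15 for Cd37, so the brightest probe set of Cd37 spread less than the median gene. The second probe set of Cd37 ranged over 0.23 in wild type and 0.58 in the knockout. Of 12393 genes, 28 spread at least as widely as Cd79b. The cut was the range of Cd79b, the narrowest of these 6 members, so the 28 held all 6 by construction. They also held 3 genes of the surface, signalling, transcription factor and MHC class II lists described below, with 14, 16, 15 and 8 genes. Of the 28, 23 had wild type array 2 as the highest wild type array, against 35.7% of all genes. In the knockout the ranges were smaller for 5 of the 6 (0.32 for Fcer2a to 0.91 for Cd22) and larger for Ms4a1 (1.69), where the median over all genes was 0.24. Wild type array 2 was the highest of the 6 arrays for 8 of the 9 members, against 17.2% of all genes, and knockout array 1 was the lowest of the knockout arrays for 7 of the 9, against 33.1% of all genes.

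**Figure D4:**
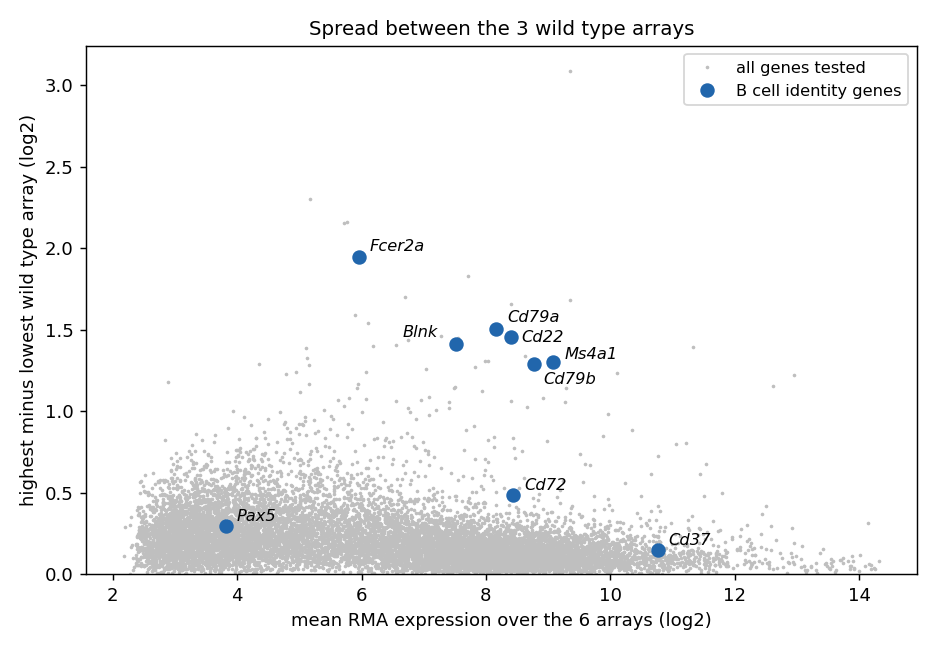
Highest minus lowest wild type array (log2) against the mean RMA expression over the 6 arrays (log2) for all 12393 genes (grey) and the 9 members (blue). Fcer2a, Cd79a, Cd22, Blnk, Ms4a1 and Cd79b lie between 1.29 and 1.95, where the median gene is at 0.18.

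Most members also followed each other over the arrays, but Pax5 and Cd37 did so less. Pearson's r between pairs of members over the 6 arrays had a median of 0.82 over 36 pairs and ran from -0.15 to 0.99, as a description of arrays that share their library and scaling. It was above 0.8 for 19 of the 36 pairs. Pairs with Pax5 ran from -0.15 to 0.54 and pairs with Cd37 from -0.02 to 0.64. Among Cd79a, Cd79b, Ms4a1, Cd22, Blnk and Fcer2a all 15 pairs lay between 0.67 and 0.99. These 6 were chosen with the values seen, as the members of widest range in wild type, so a high r among them is partly built in. Between the probe sets of 1 gene r was 0.99 for Ms4a1, 0.98 for Cd22, 0.85 for Fcer2a and 0.74 for Cd37.

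Taking the mean of the other 8 members as a covariate, a fit chosen after seeing the data, compared each member at a like level of the rest. Cd22 then differed by 0.42 (SE 0.10, limma adjusted p = 0.126) and Cd79b by -0.21 (SE 0.09, limma adjusted p = 0.302). Cd79a differed by -0.04 (SE 0.09), so its interval from -0.25 to 0.17 was far narrower than without the covariate. None of the 9 passed in these fits (0 called). The unadjusted limma p was 0.0046 for Cd22 and 0.053 for Cd79b, so that Cd22 alone was under 0.05. Shares over all genes were not computed for these fits. With the mean of all 9 members as the covariate, 82 of 12393 genes were called higher and 24 lower.

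Other genes of mature B cells, from a list that did not contain the members, had a mean with the same highest and lowest array. Of 14 measured surface genes, 2 were called lower in the knockout and 0 higher, against 0.573% and 1.33% of all genes. The difference was negative for 10 and positive for 4, with a median of -0.38. The 2 called were the costimulatory genes Cd83 and Cd86, which activated T cells and antigen-presenting cells also transcribe. Cd83 had 8.83, 8.83 and 8.64 in the knockout, against 9.51, 9.64 and 9.49 in wild type (difference -0.78, SE 0.09, limma adjusted p = 0.0128). Cd86 had 6.16, 6.52 and 6.34 in the knockout, against 7.06, 7.21 and 7.17 in wild type (difference -0.80, SE 0.11, limma adjusted p = 0.0212). Their groups did not overlap, unlike those of the B cell receptor chains. In the list, 5 of the 14 genes had groups that did not overlap, against 25% of all genes. The mean of the list was 6.91, 7.48 and 7.22 in the knockout, against 7.15, 7.94 and 7.30 in wild type. All 14 genes were highest of the wild type arrays on array 2, against 35.7% of all genes. Knockout array 1 was the lowest knockout array for 10 of the 14 and the highest for 2, against 33.1% and 36.4% of all genes.

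Among 15 transcription factors of the B lineage, 1 was called lower and 0 higher, against 0.573% and 1.33% of all genes. The difference was negative for 14 and positive for 1, with a median of -0.25. The called gene was Pou2f2 (Oct2), which binds the octamer. Pou2f2 had 7.37, 7.34 and 7.17 in the knockout, against 7.75, 7.96 and 7.86 in wild type (difference -0.56, SE 0.09, limma adjusted p = 0.0330). Id3, an inhibitor of E proteins that T cells transcribe as well, had 9.29, 8.10 and 7.95 in the knockout, against 9.39, 9.50 and 9.32 in wild type (adjusted p = 0.182). Without knockout array 1 its adjusted p was 0.00258. The list averaged 7.43 ± 0.28 in the knockout and 7.70 ± 0.32 in wild type (SD, n = 3 each). Of the 15, 13 were highest of all arrays on wild type array 2, against 17.2% of all genes. Knockout array 1 was the lowest knockout array for 10 of the 15, against 33.1% of all genes. It was the highest for 4, among them the called Pou2f2, against 36.4% of all genes.

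Of 16 genes of B cell receptor signalling 0 passed, against 1.9% of all genes, with a median difference of 0.0025, 8 positive and 8 negative. The lowest p-values were those of the adaptor gene Dapp1 (7.24 ± 0.10 in the knockout and 7.44 ± 0.04 in wild type, limma adjusted p = 0.270) and the phosphatase gene Ptpn6 (9.81 ± 0.05 in the knockout and 9.67 ± 0.07 in wild type, adjusted p = 0.377). At an unadjusted p under 0.05 only Dapp1 of the 16 was counted, against 17.9% of all genes. Many genes of this list are shared with T cells or myeloid cells. The 8 measured MHC class II genes, which B cells share with other antigen-presenting cells, had 0 called, against 1.9% of all genes. Their means were 8.44, 9.12 and 9.17 in the knockout, against 8.75, 9.23 and 8.71 in wild type.

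Genes of antibody-secreting plasma cells, the end stage of the B lineage, were ordered differently over the arrays. Of 8 measured genes 2 were called higher and 0 lower in the knockout, against 1.33% and 0.573% of all genes. The list had a median difference of 0.45, with 7 genes positive and 1 negative. Its mean was 8.56, 8.26 and 7.97 on knockout arrays 1, 2 and 3, against 7.70, 7.92 and 7.87 on the wild type arrays. Knockout array 1, the lowest of all arrays in the mean of the B cell members, was the highest here. It was the highest knockout array for 7 of the 8 genes, against 36.4% of all genes. Derl3 had the greatest difference of the list, without a call (1.77-fold, limma adjusted p = 0.0554). The genes called higher were Ell2, an elongation factor for immunoglobulin transcripts, and Prdm1 (Blimp1). Ell2 had 7.06, 6.90 and 6.83 in the knockout, against 6.18, 6.47 and 6.34 in wild type (1.52-fold, limma adjusted p = 0.0403). Prdm1, which effector Treg also transcribe, had 7.71, 7.85 and 7.87 in the knockout, against 7.36, 7.36 and 7.35 in wild type (1.37-fold, limma adjusted p = 0.0379).

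Of a list of 14 immunoglobulin symbols, 5 were measured by a probe set of a single symbol. Igha was called higher, against 1.33% of all genes, and the other 4 did not pass. Igha, the constant region of immunoglobulin A, had 14.47, 13.66 and 13.80 in the knockout, against 12.14, 11.18 and 12.41 in wild type, a 4.19-fold difference (limma adjusted p = 0.0303). Wild type array 2, the highest in the B cell members, was the lowest in Igha. The lambda variable gene Iglv1 had 10.38, 10.73 and 9.13 in the knockout, against 10.24, 10.51 and 11.12 in wild type (difference -0.55, limma adjusted p = 0.534). Immunoglobulin probe sets can bind transcripts of related segments, so their levels are uncertain.

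**Figure D5:**
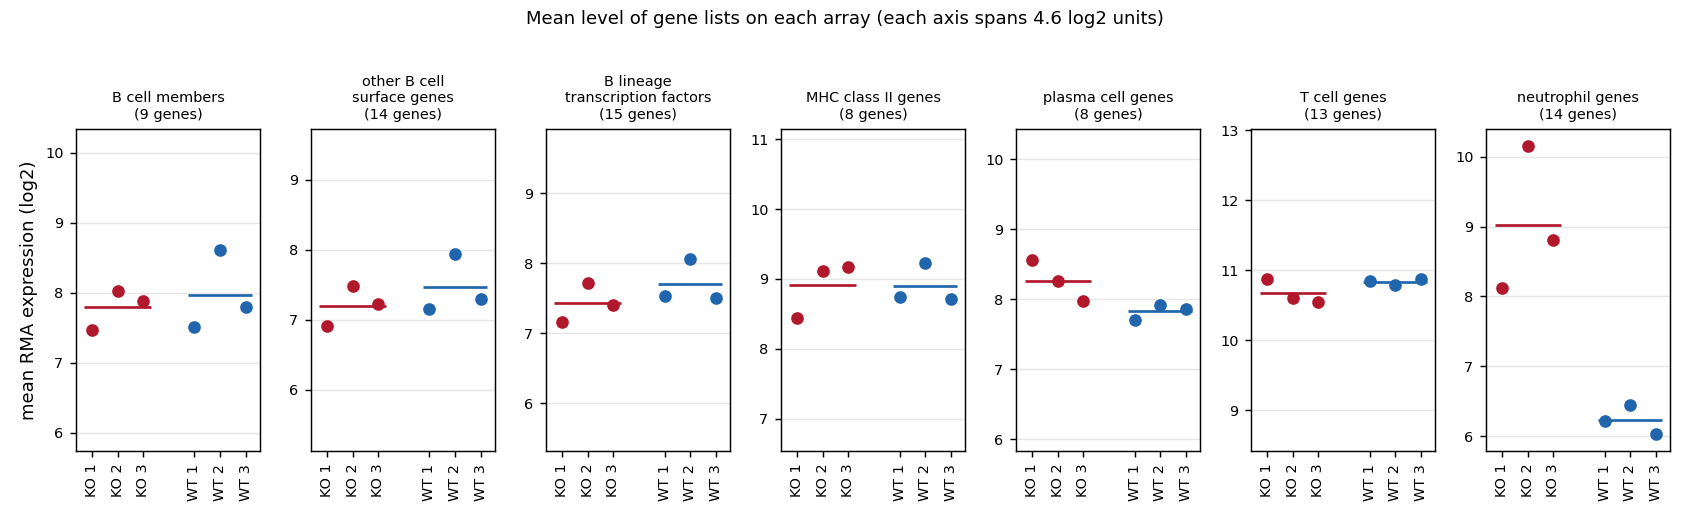
Mean RMA expression (log2) of 7 gene lists on the 3 knockout arrays (KO, red, left) and 3 wild type arrays (WT, blue, right), with lines for group means and every axis spanning the same number of log2 units. The B cell members, the other surface genes and the transcription factors peak on wild type array 2, the plasma cell list on knockout array 1 and the neutrophil list on knockout array 2.

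The calls on these 6 genes outside the members were not stable to the loss of 1 array. Cd83 lost its call when any 1 wild type array was left out, and Igha and Cd86 did so as well when knockout array 3 was left out. Pou2f2, Prdm1 and Ell2 kept it only when knockout array 1 was left out. With 1 array left out, the highest limma adjusted p ran from 0.0773 for Cd83 to 0.169 for Ell2, and no direction changed. Igha also lost its call with trend and robust variance (limma adjusted p = 0.0836). With the mean of a gene's probe sets, Cd86 differed by -0.51 and Pou2f2 by -0.47, and both lost their calls (limma adjusted p = 0.0864 and 0.0534). With the mean of the 9 members as a covariate, Pou2f2, Prdm1 and Ell2 lost theirs (limma adjusted p = 0.0696, 0.0696 and 0.0663).

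The 6 genes whose pattern was most like the mean of the members, by Pearson's r over the 6 arrays among 1482 genes at or above the median level that span 0.5 or more, were Tnfrsf13c (r = 0.99), Scd1 (0.97), Ralgps2 (0.97), Gata2 (0.96), Pkig (0.95) and Lmo2 (0.94). Tnfrsf13c encodes the receptor of the B cell survival factor BAFF, and it had 6.32, 6.83 and 6.65 in the knockout, against 6.30, 7.73 and 6.69 in wild type. Scd1, a fatty acid desaturase gene, had 5.78, 6.83 and 6.99 in the knockout, against 6.20, 7.91 and 6.50 in wild type. Of the 50 genes most alike, 18 were in the B lineage, MHC class II, plasma cell or immunoglobulin lists, which held 41 of the 1482. With 6 arrays such values are a description and select high r.

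Genes of the labelled cell type lay above the highest unrelated tissue gene on all arrays. They were Cd3e (11.09 to 11.39 in the knockout, 11.38 to 11.47 in wild type), Cd4 (8.92 to 9.37 in the knockout, 9.31 to 9.36 in wild type) and Il2ra, encoding CD25 (8.21 to 8.60 in the knockout, 8.91 to 9.12 in wild type). These values do not measure purity. Cd8b1 had 7.38, 8.17 and 7.94 in the knockout, against 8.53, 8.81 and 7.97 in wild type (difference -0.61, limma adjusted p = 0.276). The 10 measured natural killer and CD8 T cell genes had means of 7.53, 8.20 and 8.14 in the knockout, against 7.84, 7.83 and 7.67 in wild type. Il2ra was lower in the knockout (limma adjusted p = 0.0432), a call kept with 1 array left out only when that array was knockout array 1. It also lost the call with the mean of its probe sets (-0.44, limma adjusted p = 0.0918) and with a replicate block (limma adjusted p = 0.0570). The targeted gene Dnmt1 had 8.67, 8.89 and 9.34 in the knockout, against 9.56, 9.43 and 9.50 in wild type, without passing the test (limma adjusted p = 0.152), and the place of its probe set relative to the deleted exons is not stated. It passed when knockout array 3 was left out. Foxp3 had 9.28, 8.82 and 8.43 in the knockout, against 9.47, 9.51 and 9.51 in wild type (adjusted p = 0.142), and passed when knockout array 1 was left out. The mean of 13 T cell genes ranged from 10.55 to 10.88 in the knockout and from 10.79 to 10.88 in wild type, that of 15 monocyte and macrophage genes from 6.09 to 6.20 in the knockout and from 4.998 to 5.52 in wild type, and that of 8 dendritic cell genes from 6.63 to 6.88 in the knockout and from 6.45 to 6.57 in wild type. The 14 neutrophil genes had means of 8.12, 10.15 and 8.80 in the knockout, against 6.22, 6.44 and 6.03 in wild type. Of them 9 were called higher, against 1.33% of all genes. Of 11 Treg genes 3 were called lower and 0 higher in the knockout, against 0.573% and 1.33% of all genes. The difference was negative for 9 and positive for 2, with a median of -0.51. The Treg list had means of 9.21, 8.80 and 8.51 in the knockout, against 9.27, 9.19 and 9.27 in wild type. Wild type array 2 was the highest wild type array in the neutrophil and monocyte means as well as in the B cell members. Knockout array 1, the lowest array in the mean of the members, was the lowest knockout array for 13 of the 14 neutrophil genes, against 33.1% of all genes. It was the highest for 11 of the 13 T cell and 10 of the 11 Treg genes, against 36.4% of all genes. The part of these cells in the B cell values was not tested. Array medians over all probe sets were between 5.71 and 5.77 in the knockout and between 5.70 and 5.72 in wild type, and Pearson's r over probe sets lay between 0.990 and 0.993 for pairs of knockout arrays, between 0.996 and 0.997 for pairs of wild type arrays and between 0.984 and 0.991 across the groups.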

How the data were processed

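Total RNA of CD4+CD25+ cells was measured on 6 arrays, 3 Dnmt1 knockout and 3 wild type, grouped by the genotype label. The deposited log2 values, 1 per probe set and array, were computed by the authors with RMA, per the submitters' processing notes, which name no version. RMA scales arrays to each other, so total RNA per cell is not measured. Besides 64 controls, the 22690 probe sets comprised 20380 that the platform annotation, which can be outdated, pairs with 1 symbol, 691 with several and 1555 with none.

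The probe set with the highest mean over the 6 arrays stood for a gene, and the 12393 genes were tested with limma 3.58.1 (lmFit, eBayes) in R 4.3.3, two-sided, with no filter on dim probe sets and with Benjamini-Hochberg adjustment over all genes. All 22626 probe sets that are not controls were fitted in the same way for second probe sets. Differences are knockout minus wild type, errors are SD over 3 arrays or the SE of limma. The members and gene lists were chosen with earlier results of these data known. Named genes were all members, the called genes of each B lineage list (up to 4, or the 2 of lowest p where fewer than 2 passed), Dnmt1 and Foxp3 as checks, and the 6 genes most alike by r. Cd4, Cd3e, Il2ra, Cd8b1, Ncr1, Klra8 and Derl3 were named outside this rule.

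Replicate numbers were not taken as pairs. Alternatives were quantile normalisation, median centring, cyclic loess, leaving out the dimmest 40% of genes, a replicate block, array weights, trend and robust variance, the mean of a gene's probe sets, leaving out each array, other members in the mean and the members' mean as a covariate. Promoters are from RefSeq (GRCm38.p6). Figures were drawn with matplotlib 3.10.9. The number of arrays limits the precision.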

Additional observations from a re-analysis of the deposited data

How the results depend on the processing

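No member passed in any of the 15 alternatives run for the members (limma, lowest adjusted p = 0.126, 0 of 134 fits called), and 118 of the 134 kept the direction. Cd72, near 0, turned to 0.021 with quantile normalisation, 0.049 with cyclic loess and 0.031 with array weights. With the mean of the other 8 members as a covariate, chosen after seeing the data, Cd72 was at 0.078, Blnk at 0.14 and Fcer2a at 0.024; the cause was not tested. With 1 array left out, the differences ran from -0.60 to 0.15 for Cd79a, -0.67 to -0.026 for Cd79b, -0.93 to -0.089 for Ms4a1, -0.23 to -0.15 for Cd37, -0.19 to 0.54 for Cd22, -0.42 to 0.29 for Blnk, -0.088 to 0.15 for Cd72, -0.66 to 0.31 for Fcer2a and -0.020 to 0.15 for Pax5, and the mean of the members from -0.41 to 0.14. Averaging over all 13 probe sets gave -0.22, without Cd37 and Cd72 -0.21, and without Pax5 and Cd37, chosen after seeing the data, -0.22. Pax5 was not tested where the dimmest 40% of genes were left out, and no mean over 9 members could then be had.

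Over all genes, 165 were higher and 71 lower in the knockout. The lower count was 113 with trend and robust variance, 110 with array weights and 35 with the replicate block, which gave 112 higher and changed no member's call. The block took the calls of Pou2f2, Prdm1, Ell2 and Il2ra. The labels do not say that a number marks a shared source, and over all genes the deviations of same-numbered samples had r of -0.08, 0.15 and -0.04, with 2 of 6 samples most like the one of their own number. Of the 9 members, 5 had array 1 lowest and array 2 highest in both genotypes, as 3.66% of all genes had. This count cannot show a shared source, since most members follow each other over the arrays. With the block the limma adjusted p was 0.232 for Ms4a1 and 0.266 for Cd79b. Each probe set tested separately gave 270 higher and 110 lower of more features, and the mean of the 9 members as a covariate 82 and 24. With 1 array left out, the counts ran from 17 to 358 higher and from 3 to 186 lower. Of the 6 genes called in the other B lineage lists, 0 changed direction in 90 fits, and 35 of these fits lost the call, 26 of them with 1 array left out. Of the genes chosen for likeness, which passed in no setting, Gata2 (0.0049) turned to -0.024 with median centring and -0.0091 with the mean of its probe sets, and Lmo2 (-0.20) to 0.013 with the mean of the 9 members as a covariate. With 1 array left out they ran from -0.61 to 0.11 for Tnfrsf13c, -0.67 to 0.18 for Scd1, -0.12 to 0.15 for Gata2, -0.32 to 0.016 for Pkig and -0.44 to 0.19 for Lmo2. The limits are the 3 arrays per group, the missing detection calls and a single probe set for Pax5.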
